A study of Mus musculus with 24 samples.

Results

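The PGC-1 coactivators and the regulators of mitochondrial biogenesis that work with them were examined as a group of 10 genes, taken by symbol from the deposited table of 12010 genes and present there with 1 row each. They are the coactivators Ppargc1a, Ppargc1b and Pprc1, the DNA-binding partners Esrra, Nrf1 and Gabpa, and the genes of mitochondrial transcription Tfam, Tfb1m, Tfb2m and Polrmt. Messenger RNA had been sequenced from 8 lines of B16-F10-luc2, a mouse melanoma line with a luciferase reporter, with 3 libraries of each line. Beside parental cells, wild type for all 3 factors, there were 3 single knockouts (MITF KO, TFE3 KO, TFEB KO), 3 double knockouts (MITF/TFE3, MITF/TFEB and TFEB/TFE3 DKO) and the triple knockout (TKO) of MITF, TFEB and TFE3. All of them grew in DMEM with 10% FBS, penicillin and streptomycin, and the design asks which of the 3 factors, alone or together, set the level of each gene. TFEB and TFE3 had been inactivated with CRISPR-Cas9 in the parental cells and in the MITF KO, so the 4 lines without MITF share a starting line, and the edited cells were isolated as clones, so that knockout and clone cannot be told apart. The MITF KO carries a frameshift and may still make a little truncated protein. Nothing in the labels says that the 3 libraries of a line came from separate cultures, so p-values measure only the spread between these libraries, which may be technical. In bulk RNA, fewer cells that express a gene and less RNA per cell cannot be told apart.

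MITF, TFEB and TFE3 are related basic helix-loop-helix leucine zipper factors that bind E-boxes such as CACGTG and CATGTG, and Ppargc1a is a known target of MITF in melanoma cells. PGC-1 proteins do not bind DNA themselves. They dock on factors such as ERRα (Esrra), NRF1 and GABPα (Gabpa), and raise the transcription of nuclear genes for oxidative phosphorylation and of TFAM, which packages mitochondrial DNA and, with TFB2M and the RNA polymerase POLRMT, starts its transcription.

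The windows before 2 annotated starts of Ppargc1a are shown, because Ppargc1a differed most between the lines. Other starts were not examined. The 250 bases before RefSeq's start lie at chr5:51725068-51725317 of GRCm39 on the minus strand. The canonical GENCODE transcript starts 13803 bases further along the gene, after chr5:51711265-51711514 on the same strand. Capitals mark CATGTG in the first window, read there on its other strand as CACATG (bases -160 to -155 from RefSeq's start), and in the other window the palindromic cAMP response element TGACGTCA (bases -83 to -76 from the canonical start), which CREB proteins bind. Neither window held both. Reads from 3′ ends cannot tell which start was used.
Ppargc1a, RefSeq start: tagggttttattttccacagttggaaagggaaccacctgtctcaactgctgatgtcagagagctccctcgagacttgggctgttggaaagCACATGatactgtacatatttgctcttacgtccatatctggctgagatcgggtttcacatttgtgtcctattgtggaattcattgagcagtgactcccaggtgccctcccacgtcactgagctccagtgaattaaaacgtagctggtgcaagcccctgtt
Ppargc1a, canonical transcript: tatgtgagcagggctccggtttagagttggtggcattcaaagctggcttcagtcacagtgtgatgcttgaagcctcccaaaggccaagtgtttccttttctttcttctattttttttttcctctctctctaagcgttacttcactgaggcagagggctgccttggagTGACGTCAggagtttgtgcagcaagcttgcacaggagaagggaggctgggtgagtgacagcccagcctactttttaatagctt

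CATGTG stood on either strand in 12.3% of the 32851 windows of 250 bases in RefSeq's table (build GRCm38.p6, matched by sequence to GRCm39), CACGTG in 6.02% and TGACGTCA in 1.55%. RefSeq's table held windows for 9 of the 10 genes. The ETS core CCGGAAG, which GABPα reads, was in 6.91% of all windows, the NRF1 core GCATGCG in 3.02% and the ERR core AAGGTCA in 4.08%. Gabpa, Tfam and Polrmt are also shown because their windows hold more than 1 of these motifs. The Gabpa window (chr16:84631762-84632011, plus strand) held the ETS core on its other strand at -93 to -87 and 2 overlapping copies of the NRF1 core, on opposite strands, at -8 to -1. The Tfam window (chr10:71073875-71074124, minus strand) held CATGTG, again as CACATG, at -210 to -205 and the ETS core at -47 to -41. The Esrra window held the NRF1 core at -34 to -28, and that of Polrmt (chr10:79582416-79582665, minus strand) the ETS core at -43 to -37 and the NRF1 core at -132 to -126. No window of Pprc1, Nrf1, Tfb1m or Tfb2m had any of the 6 motifs.
Gabpa: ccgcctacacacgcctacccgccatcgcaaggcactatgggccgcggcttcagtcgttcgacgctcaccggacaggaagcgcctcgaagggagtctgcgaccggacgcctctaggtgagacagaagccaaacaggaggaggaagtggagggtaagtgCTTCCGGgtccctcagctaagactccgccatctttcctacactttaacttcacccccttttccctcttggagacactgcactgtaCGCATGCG
Tfam: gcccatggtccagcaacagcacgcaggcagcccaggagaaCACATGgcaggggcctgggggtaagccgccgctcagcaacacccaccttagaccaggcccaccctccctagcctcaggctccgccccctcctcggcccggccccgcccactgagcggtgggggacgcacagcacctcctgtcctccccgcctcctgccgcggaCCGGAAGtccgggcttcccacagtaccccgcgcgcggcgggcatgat
Polrmt: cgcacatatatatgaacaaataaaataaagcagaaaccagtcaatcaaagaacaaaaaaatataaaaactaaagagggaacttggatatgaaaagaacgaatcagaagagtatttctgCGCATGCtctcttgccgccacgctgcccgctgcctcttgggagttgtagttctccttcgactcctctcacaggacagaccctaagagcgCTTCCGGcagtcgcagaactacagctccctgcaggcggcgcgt

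Each library had 18300902 to 26667877 reads assigned to genes, and levels are given as CPM, the reads of a gene scaled by the authors to a common library size with TMM factors. All 7 melanocyte markers checked (Sox10, Mitf, Pmel, Mlana, Tyr, Tyrp1, Dct) were measured in every line, and their summed level was lowest in the MITF/TFEB DKO (17175 to 19640 CPM) and the TKO (15826 to 16858 CPM) and highest in the MITF KO (38412 to 40321 CPM). Dct, at 12715 to 29472 CPM, made up most of this sum. Sox10 was higher in the MITF/TFEB DKO (986 to 1121 CPM) and the TKO (988 to 1036 CPM) than in parental cells (708 to 762 CPM). The other markers were below parental cells in both of those lines. In the MITF KO, Mlana (437 to 516 CPM) and Tyr (102 to 118 CPM) were below parental cells (760 to 851 and 127 to 134 CPM). Of markers of other cell types, Pecam1 (endothelial) had 25.5 to 31.6 CPM in the TFEB/TFE3 DKO and at most 17.6 CPM elsewhere, and Cdh1 and Krt14 (epithelial) together had 16.4 to 19.7 CPM in the TKO and at most 9.84 CPM elsewhere. Col1a1 (fibroblast) was at most 2.62 CPM in all lines but the MITF/TFEB DKO, which had 6.27 to 7.84 CPM. The markers measured were 1 of 3 for endothelial cells, 2 of 4 for epithelial cells and 1 of 4 for fibroblasts. Their part in the results was not tested. Tfeb was at 2.06 to 5.27 CPM in the 4 lines without TFEB and 7.87 to 22.7 CPM in the others, and Tfe3 at 8.01 to 21.7 CPM in the 4 lines without TFE3 and 31.1 to 62.5 CPM in the others. Mitf mRNA was at 1358 to 1470 CPM in the MITF KO and 763 to 797 CPM in parental cells, so reads from its 3′ end do not check the loss of MITF, whose lesion is a frameshift. None of the 5 immune and 2 erythroid markers looked up was among the measured genes, so these were not analysed.

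Ppargc1a, the coactivator that directs mitochondrial biogenesis and responds to cold, fasting and exercise in other tissues, was the most variable of the group, with a 7.08-fold difference between the highest and lowest line means. Parental libraries had 152, 149 and 128 CPM, MITF KO libraries 344, 343 and 309 CPM, and TFEB/TFE3 DKO libraries 337, 308 and 324 CPM. MITF/TFEB DKO libraries had 65.7, 50.5 and 50.7 CPM and TKO libraries 46.1, 46.4 and 48.2 CPM. The first pair of knockout lines thus stood wholly above the parental libraries, and the other pair wholly below. TFE3 KO libraries (126, 123 and 150 CPM) overlapped with the parental ones, while those of the TFEB KO (231, 160 and 197 CPM) and the MITF/TFE3 DKO (169, 190 and 220 CPM) lay above them.

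Against parental cells, Ppargc1a was upregulated in the MITF KO (log2 fold change 1.21 ± 0.12, SE; limma adjusted p = 4.1e-08) and in the TFEB/TFE3 DKO (1.17 ± 0.12, adjusted p = 1.2e-06). Downregulation was found for the MITF/TFEB DKO (-1.35 ± 0.12, adjusted p = 2.9e-09) and for the TKO (-1.58 ± 0.12, adjusted p = 1.7e-10). Fold changes and their errors are from limma on log2(CPM + 1), which understates changes of weakly expressed genes, with n = 3 libraries a line and p-values adjusted over all 12010 genes. These were the 4 comparisons with parental cells in which a member passed a 2-fold change with unadjusted p under 0.05, and Ppargc1a was the member each time. That rule called 6.28% of all genes in the MITF KO, 0.958% in the TFEB/TFE3 DKO, 13.7% for the MITF/TFEB DKO and 14.7% for the TKO. Smaller rises passed an adjusted p of 0.05 in the TFEB KO (0.44 ± 0.12, adjusted p = 0.037) and the MITF/TFE3 DKO (0.43 ± 0.12, adjusted p = 0.0073), while the TFE3 KO had a difference of -0.11 (adjusted p = 0.61, 95% interval of limma -0.36 to 0.15). The call in the TFEB KO was lost without parental replicate 1, 2 or 3 or TFEB KO replicate 1 or 3 (adjusted p from 0.059 to 0.19) and with only these 6 libraries in the fit (adjusted p = 0.21). The call in the MITF/TFE3 DKO was lost without its replicate 3 (0.33, adjusted p = 0.054).

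**Figure D1:**
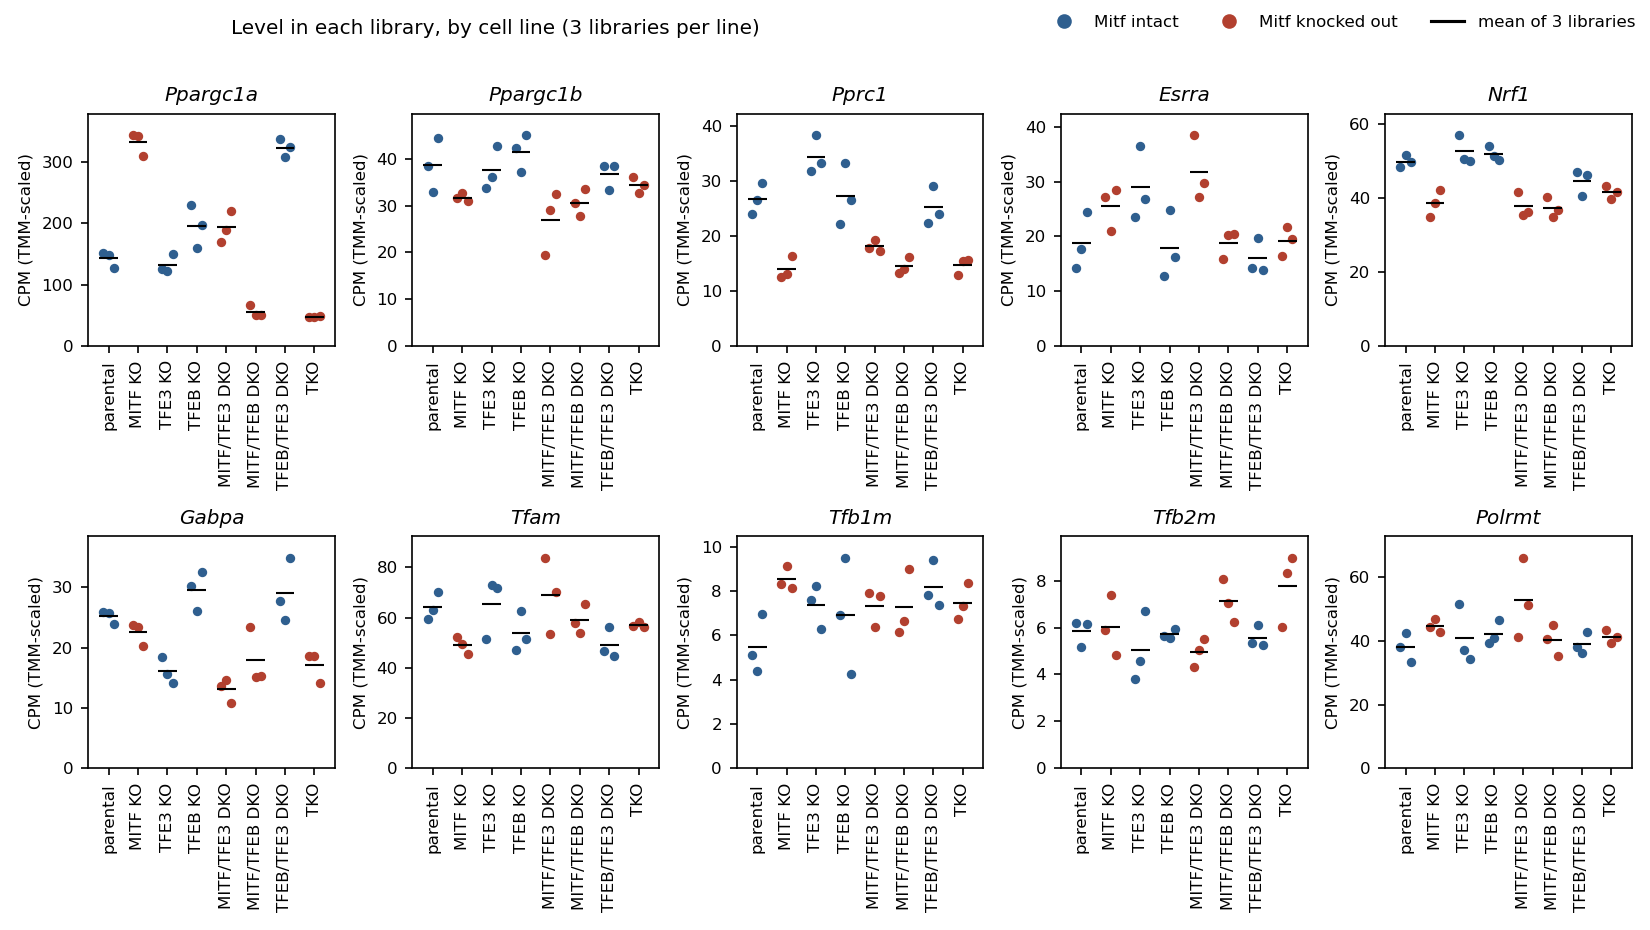
TMM-scaled CPM (vertical axes, from 0) of the 10 genes in each of the 24 libraries, by cell line; points are libraries, bars the mean of 3, and red marks lines in which Mitf was knocked out. Ppargc1a ranges from 46.1 to 344 CPM, and for Pprc1 every red point lies below every blue point.

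The effect of losing TFEB on Ppargc1a depended on MITF. With MITF intact, losing TFEB raised Ppargc1a, by 0.44 on the log2 scale from parental cells and by 1.28 ± 0.12 from the TFE3 KO (adjusted p = 8.6e-08). The first of these calls passed in only 1 of 6 fits with 1 of its libraries left out. Without MITF, losing TFEB lowered Ppargc1a, with a change of -2.57 ± 0.12 from the MITF KO (adjusted p = 3.1e-14) and -2.01 ± 0.12 from the MITF/TFE3 DKO (adjusted p = 3.7e-12). The difference between the effect of TFEB in MITF KO and in parental cells was -3.01 ± 0.17 (interaction of MITF and TFEB, adjusted p = 2e-12), in a comparison where 35.1% of all genes had an adjusted p under 0.05.

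Seen from MITF, the same 8 levels gave rises where TFEB was present and falls where it was absent. Losing MITF raised Ppargc1a from the parental level and from that of the TFE3 KO (0.54 ± 0.12, adjusted p = 0.001). It lowered Ppargc1a from the TFEB KO (-1.79 ± 0.12, adjusted p = 2e-11) and from the TFEB/TFE3 DKO (-2.76 ± 0.12, adjusted p = 6.5e-15). These steps share lines with the ones described for TFEB and are not separate evidence.

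Losing TFE3 changed Ppargc1a in 2 of 4 backgrounds. The level rose when TFE3 was lost in addition to TFEB (0.73 ± 0.12, adjusted p = 0.0022) and fell when it was lost in addition to MITF (-0.79 ± 0.12, adjusted p = 3.6e-05). Between the TKO and the MITF/TFEB DKO the difference was -0.23 ± 0.12 (adjusted p = 0.27, 95% interval -0.48 to 0.02). The interaction of MITF and TFE3 was -0.68 ± 0.17 (adjusted p = 0.0069) and that of TFEB and TFE3 was 0.84 ± 0.17 (adjusted p = 0.0024). In cells without MITF the interaction of TFEB and TFE3 was 0.56 ± 0.17 (adjusted p = 0.02), a call lost without MITF/TFE3 DKO replicate 1 or MITF/TFEB DKO replicate 2 or 3 (adjusted p from 0.055 to 0.063). Of all genes, 20.2%, 12.4% and 28.6% passed in these 3 interactions.

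**Figure D2:**
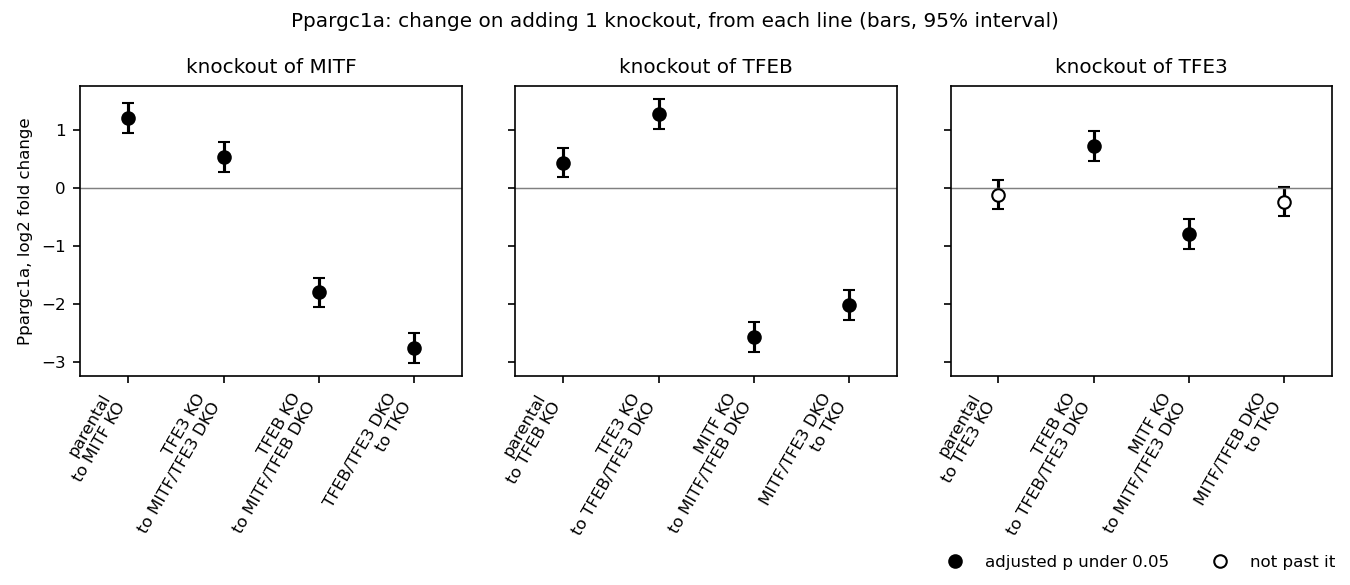
Log2 fold change of Ppargc1a (vertical axis) when 1 more gene was knocked out, with the line before and after on the horizontal axis; bars are 95% intervals of limma (n = 3 libraries a line), and filled points have an adjusted p under 0.05. The steps that lose TFEB go up with MITF present (0.44 and 1.28) and down without it (-2.57 and -2.01). The call for the step of 0.44 passed in only 1 of 6 fits with 1 of its libraries left out.

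In order of its level, Ppargc1a fell into pairs of lines whose difference did not pass. The same values set this order and were tested. The TKO and MITF/TFEB DKO were lowest (difference 0.23, adjusted p = 0.27), then the TFE3 KO and parental cells. Above them were the MITF/TFE3 DKO and TFEB KO (difference 0.01, adjusted p = 0.95). The TFEB/TFE3 DKO and MITF KO were highest (difference 0.04, adjusted p = 0.84). All TKO libraries (46.1 to 48.2 CPM) lay below all MITF/TFEB DKO libraries (50.5 to 65.7 CPM). A difference within the lowest pair is thus not excluded. Each pair differed from the next, between its upper and the other's lower line, with adjusted p = 9.3e-09, 0.0073 and 0.0022 from the bottom to the top. The 100 genes nearest to Ppargc1a on chromosome 5 had median changes from parental cells between -0.26 and 0.06 in the 7 lines, and Ppargc1a lay above 96 of the 100 in the MITF KO and above all in the TFEB/TFE3 DKO, and below all of them in the lowest pair. For the MITF/TFE3 DKO against the MITF KO, where Ppargc1a fell by 0.79 on the log2 scale, the median of these neighbours was -0.37, and the part of this in its level was not tested.

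Ppargc1b, the close relative that coactivates ERRα and is also linked to mitochondrial biogenesis, varied by no more than 1.54-fold between line means. Parental libraries had 38.6, 33.1 and 44.5 CPM and MITF/TFE3 DKO libraries 19.3, 29.2 and 32.5 CPM. All 3 libraries of that DKO were below the parental ones, and Ppargc1b was downregulated there (-0.53 ± 0.14, adjusted p = 0.0051), a call lost without its replicate 1 (-0.31, adjusted p = 0.059). In the MITF/TFEB DKO the libraries were at 30.6, 27.7 and 33.5 CPM and the change of -0.32 ± 0.14 had an adjusted p over 0.05, but passed without parental replicate 2 (adjusted p = 0.027) or replicate 3 of the DKO (adjusted p = 0.049), with quantile normalization (adjusted p = 0.038) or with only these libraries in the fit (adjusted p = 0.045). The TKO, at 36.1, 32.9 and 34.4 CPM, was above the MITF/TFE3 DKO (0.37 ± 0.14, adjusted p = 0.035), but not without replicate 1 of that DKO (0.16, adjusted p = 0.33) or TKO replicate 1 or 3. Losing MITF lowered Ppargc1b from the TFE3 KO (-0.49 ± 0.14, adjusted p = 0.0074) and from the TFEB KO (-0.43 ± 0.14, adjusted p = 0.013). The same step from parental cells (-0.27) and from the TFEB/TFE3 DKO (-0.09) did not pass (adjusted p = 0.15 and 0.61). Over the last 500 bases of the canonical transcript, 56% are shared with Gm46627 on the opposite strand, and whether the counting used strand is not given in the sources used here.

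Pprc1, the third coactivator, which responds to growth signals and serum, was lower wherever MITF was missing. Parental libraries had 23.9, 26.5 and 29.6 CPM, MITF KO libraries 12.4, 13.1 and 16.3 CPM and MITF/TFE3 DKO libraries 17.7, 19.3 and 17.1 CPM. MITF/TFEB DKO libraries had 13.1, 14.0 and 16.1 CPM and TKO libraries 12.9, 15.3 and 15.6 CPM. The lines with MITF were higher, with 31.7, 38.3 and 33.1 CPM in TFE3 KO libraries, 22.0, 33.2 and 26.4 CPM in TFEB KO libraries and between 22.4 and 29.1 CPM in TFEB/TFE3 DKO libraries. The 12 libraries without MITF (12.4 to 19.3 CPM, median 15.5) did not overlap with the 12 with MITF (22.0 to 38.3 CPM, median 27.8), which was true of 7.66% of all genes and of no other member.

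From parental cells Pprc1 changed by -0.89 ± 0.14 (adjusted p = 2.9e-05) with the loss of MITF alone, and by -0.54 ± 0.14 (adjusted p = 0.0041) where TFE3 was lost too. The change was -0.84 ± 0.14 (adjusted p = 2.5e-05) for the MITF/TFEB DKO and -0.83 ± 0.14 (adjusted p = 3.2e-05) for the TKO. The 4 comparisons share the parental libraries. None of these calls was lost when any 1 library was left out, and none of the lines with MITF passed. All TFE3 KO libraries were above the parental ones, with a change of 0.35 (adjusted p = 0.11). The difference of 0.36 between the MITF/TFE3 DKO and the MITF KO had an adjusted p of 0.052, and passed without MITF KO replicate 3 (0.47, adjusted p = 0.024).

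In some lines the surroundings of Pprc1 on chromosome 19 (46033325 to 46061354, plus strand, GRCm39) moved too. The median change of its 100 neighbouring genes was -0.20 in the MITF KO and -0.34 in the MITF/TFE3 DKO, but -0.76 and -0.80 for the MITF/TFEB DKO and TKO, against medians of all genes from 0.00 to 0.02. Pprc1 lay above 3 of the 100 neighbours in the MITF KO and above 45 and 47 of them in the MITF/TFEB DKO and TKO. The part of this in the level of Pprc1 was not tested.

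**Figure D3:**
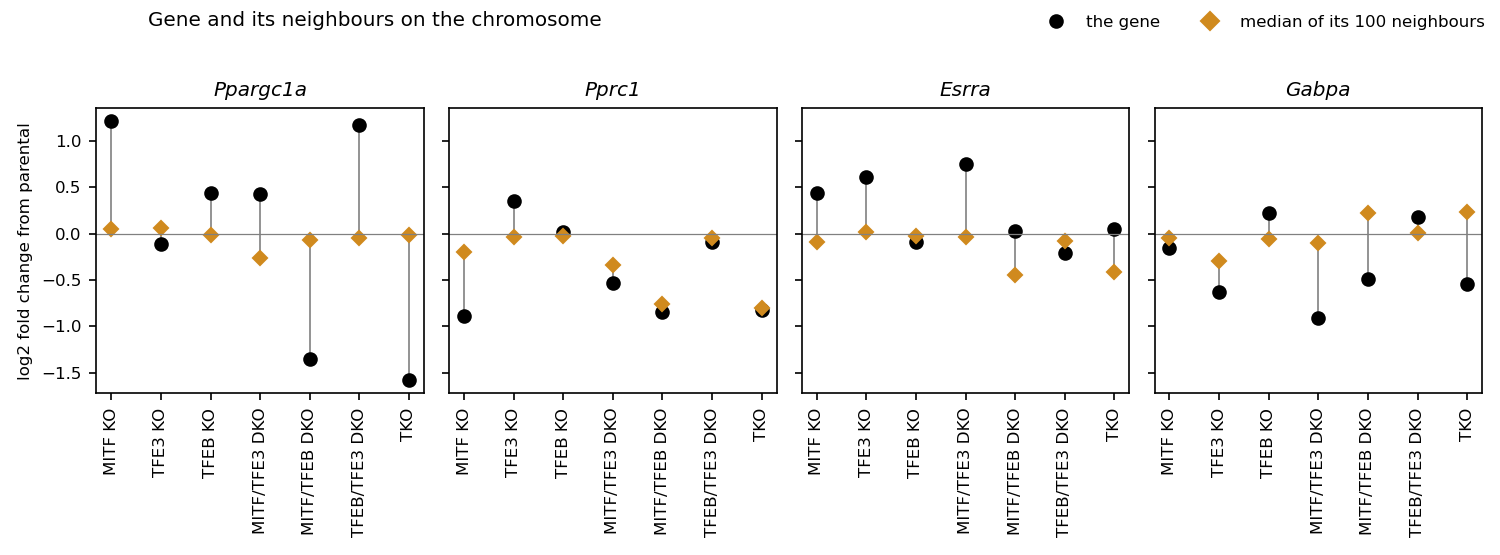
Log2 fold change from parental cells (vertical axis) of 4 members (black) and the median of the 100 genes nearest to each on its chromosome (orange diamonds) in the 7 KO lines. Ppargc1a lies below its neighbours' median by more than 1 in the MITF/TFEB DKO and TKO, while Pprc1 lies close to its neighbours' median of -0.76 and -0.80 in the MITF/TFEB DKO and TKO.

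Esrra encodes the orphan nuclear receptor ERRα, which PGC-1 proteins coactivate at genes of the respiratory chain. Parental libraries had 14.2, 17.7 and 24.4 CPM and MITF/TFE3 DKO libraries 38.5, 27.2 and 29.8 CPM, so that the groups did not overlap (0.75 ± 0.22, adjusted p = 0.0089). In the TFE3 KO, with 23.5, 36.4 and 26.9 CPM, 2 of 3 libraries were above every parental one, and the change of 0.61 passed only without parental replicate 3 (0.80, adjusted p = 0.032) or TFE3 KO replicate 1 (0.74, adjusted p = 0.042). The MITF KO, with 27.1, 20.9 and 28.5 CPM, passed only without parental replicate 3 (0.64, adjusted p = 0.041). The call in the MITF/TFE3 DKO was lost without parental replicate 1 (0.58, adjusted p = 0.064) or the DKO's replicate 1 (0.61, adjusted p = 0.056).

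The TKO had 16.4, 21.8 and 19.4 CPM of Esrra, below all libraries of the MITF/TFE3 DKO (-0.69 ± 0.22, adjusted p = 0.011). This call was lost without replicate 1 of the DKO (-0.55, adjusted p = 0.067) or of the TKO (-0.59, adjusted p = 0.056). The 100 neighbours of Esrra on chromosome 19 had a median difference of -0.38 in the same comparison, and the part of this in the level of Esrra was not tested. With MITF intact, losing TFEB from the TFE3 KO also lowered Esrra (-0.81 ± 0.22, adjusted p = 0.0086). The TFEB/TFE3 DKO had 14.2, 19.8 and 13.9 CPM. Steps that lost TFEB from parental cells (-0.09) and from the MITF KO (-0.42) did not pass (adjusted p = 0.91 and 0.12). All of the last 500 bases of the Esrra transcript overlap Trmt112 on the opposite strand, so its reads can be told from those of Trmt112 only if strand was used.

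Nrf1, which binds a palindromic GC-rich site in front of many respiratory genes and of Tfam, was slightly lower than in parental cells where MITF was missing. Parental libraries had 48.3, 51.6 and 49.7 CPM, MITF KO libraries 34.9, 38.7 and 42.2 CPM and MITF/TFE3 DKO libraries 41.7, 35.4 and 36.1 CPM. MITF/TFEB DKO libraries had 40.2, 34.8 and 36.7 CPM and TKO libraries 43.3, 39.8 and 41.6 CPM. All 12 of these libraries were below the 3 parental ones, although they overlapped with those of the TFEB/TFE3 DKO (47.0, 40.6 and 46.2 CPM). The changes were -0.41 ± 0.09 (MITF/TFEB DKO, adjusted p = 0.00052), -0.40 ± 0.09 (MITF/TFE3 DKO, adjusted p = 0.0014), -0.37 ± 0.09 (MITF KO, adjusted p = 0.0029) and -0.26 ± 0.09 (TKO, adjusted p = 0.02). That in the TKO was lost without parental replicate 2 (-0.23, adjusted p = 0.067) or TKO replicate 2 (-0.23, adjusted p = 0.074). Medians of the 100 neighbours of Nrf1 on chromosome 6 were between -0.03 and 0.16 in these 4 lines.

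Gabpa, the DNA-binding subunit of GABP (NRF2), had its lowest levels in the MITF/TFE3 DKO and the TFE3 KO, and it was lower in the TFE3 KO although MITF was intact. Parental libraries had 25.9, 25.7 and 23.9 CPM, TFE3 KO libraries 18.4, 15.6 and 14.2 CPM and MITF/TFE3 DKO libraries 13.7, 14.7 and 10.9 CPM. The latter 2 lines did not overlap with parental cells. Gabpa was downregulated in the TFE3 KO (-0.62 ± 0.16, adjusted p = 0.013) and the MITF/TFE3 DKO (-0.91 ± 0.16, adjusted p = 0.00011), and the latter was also below the MITF KO, at 23.8, 23.5 and 20.3 CPM (-0.75 ± 0.16, adjusted p = 0.001). The call in the TFE3 KO was lost without parental replicate 2 (adjusted p = 0.052) or TFE3 KO replicate 2 or 3 (adjusted p = 0.052 and 0.057), and the median of the 100 neighbours of Gabpa on chromosome 16 was -0.30 there. In the MITF/TFE3 DKO that median was -0.10.

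Where TFEB was missing, no effect of TFE3 on Gabpa passed. TFEB/TFE3 DKO libraries had 27.7, 24.5 and 34.9 CPM and TFEB KO libraries 30.2, 26.0 and 32.5 CPM (difference -0.03, adjusted p = 0.95, 95% interval -0.37 to 0.30). In cells without MITF and TFEB the difference between TKO and MITF/TFEB DKO was -0.05 (adjusted p = 0.9, 95% interval -0.39 to 0.29). With TFE3 already lost, the further loss of TFEB raised Gabpa (0.81 ± 0.16, adjusted p = 0.00091). Losing MITF lowered it from the TFEB KO (-0.71 ± 0.16, adjusted p = 0.00071). In the MITF/TFEB DKO, with 23.5, 15.2 and 15.3 CPM, Gabpa was downregulated (-0.49 ± 0.16, adjusted p = 0.013), as in the TKO with 18.6, 18.6 and 14.1 CPM (-0.54 ± 0.16, adjusted p = 0.0069). The first call was lost without replicate 2 or 3 of the DKO (adjusted p = 0.077 and 0.072), the other without TKO replicate 3 (-0.41, adjusted p = 0.055). Neighbouring genes had medians of 0.23 in both lines. The TKO was below the TFEB/TFE3 DKO (-0.73 ± 0.16, adjusted p = 0.00057). From the MITF/TFE3 DKO it differed by 0.36, which passed only without replicate 2 of the DKO (0.45, adjusted p = 0.047) or TKO replicate 3 (0.49, adjusted p = 0.027). Between the MITF/TFEB DKO and the MITF KO the difference was -0.33, which passed only without replicate 1 of the DKO (-0.53, adjusted p = 0.009) or with quantile normalization (-0.45, adjusted p = 0.038). With MITF intact, the difference between the effects of TFE3 with and without TFEB was 0.59 ± 0.23 and did not pass (adjusted p = 0.093). In the MITF KO background the same difference was 0.70 ± 0.23 (adjusted p = 0.026). Leaving out any of 7 libraries (MITF KO replicate 1 or 2, MITF/TFE3 DKO replicate 3, MITF/TFEB DKO replicate 2 or 3, TKO replicate 1 or 2) ended this call, with adjusted p from 0.056 to 0.078.

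**Figure D4:**
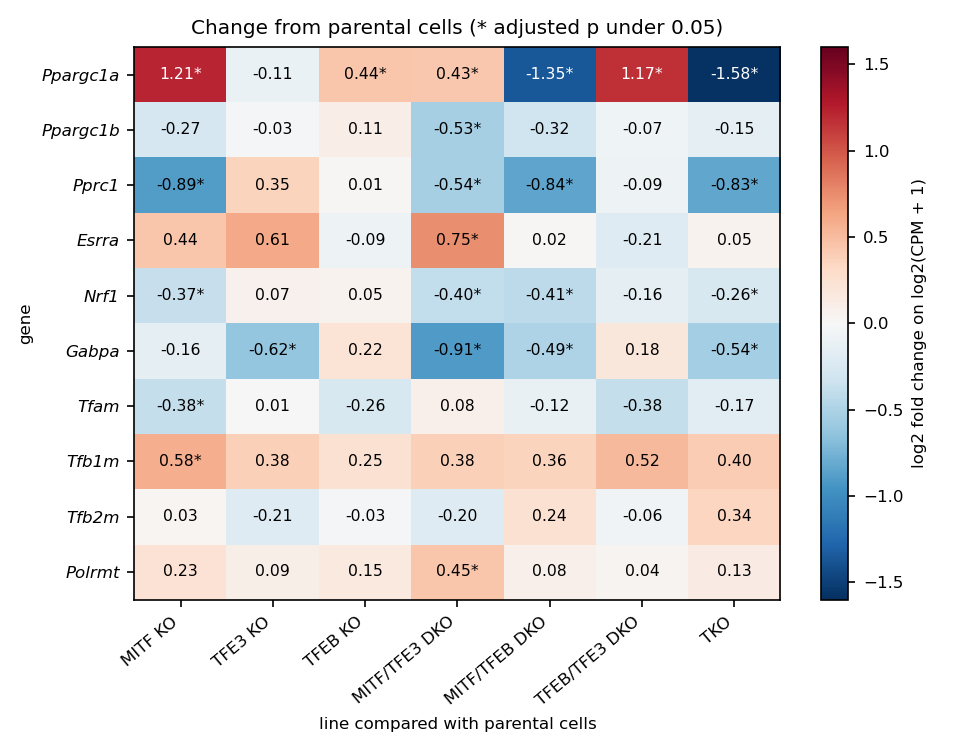
Log2 fold change from parental cells of the 10 genes (rows) in the 7 KO lines (columns); red is up, blue is down, and asterisks mark an adjusted p under 0.05. Pprc1, Nrf1, Ppargc1b and Gabpa are blue in the 4 lines without MITF, and of these only Pprc1 and Nrf1 have asterisks in all 4. Pprc1 and Nrf1 are also slightly below 0 in the TFEB/TFE3 DKO (-0.09 and -0.16), without asterisks. Ppargc1a changes sign between the 4 lines without MITF.

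Tfam packages mitochondrial DNA and bends its promoters, and its level is often read as a measure of mitochondrial DNA content. Parental libraries had 59.6, 63.0 and 70.2 CPM and those of the MITF KO, where Ppargc1a was highest, 52.3, 49.5 and 45.4 CPM. The 2 lines did not overlap, and the fall of -0.38 ± 0.15 passed narrowly (adjusted p = 0.043). Leaving out parental replicate 2 or 3 or any library of the MITF KO ended this call (adjusted p from 0.052 to 0.15). The MITF/TFE3 DKO, at 84.0, 53.4 and 70.1 CPM, was above the MITF KO (0.47 ± 0.15, adjusted p = 0.015), but not without MITF KO replicate 3 (0.41, adjusted p = 0.059) or the DKO's replicate 1 (0.32, adjusted p = 0.12). Where Ppargc1a was lowest, Tfam had 58.0, 53.9 and 65.4 CPM in libraries of the MITF/TFEB DKO and 56.5, 58.1 and 56.5 CPM in those of the TKO, with changes from parental cells of -0.12 (adjusted p = 0.5, 95% interval -0.42 to 0.18) and -0.17 (adjusted p = 0.35, 95% interval -0.47 to 0.14).

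Polrmt, the RNA polymerase of mitochondria, changed in the MITF/TFE3 DKO. It had 38.1, 42.6 and 33.4 CPM in parental cells and 41.3, 66.2 and 51.2 CPM in the DKO (0.45 ± 0.15, adjusted p = 0.019). The lowest library of the DKO lay within the parental range, and the call was lost without the DKO's replicate 2 (0.28, adjusted p = 0.14) or parental replicate 3 (0.36, adjusted p = 0.089). The other lines had between 33.4 and 51.5 CPM of Polrmt with no change that passed.

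The methyltransferase relatives Tfb1m, which modifies the small ribosomal RNA of mitochondria, and Tfb2m, the transcription initiation factor, were the least abundant members. Parental libraries had 5.09, 4.37 and 6.97 CPM of Tfb1m and MITF KO libraries 8.33, 9.12 and 8.12 CPM (0.58 ± 0.20, adjusted p = 0.025). The call was lost without parental replicate 1 or 2 or MITF KO replicate 2 (adjusted p from 0.069 to 0.12). Without parental replicate 3 Tfb1m also passed in the MITF/TFE3 DKO (0.54, adjusted p = 0.05 after rounding), the MITF/TFEB DKO (0.52, adjusted p = 0.046) and the TKO (0.56, adjusted p = 0.031). Its last 500 bases lie within Tiam2 on the opposite strand.

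TKO libraries had 6.01, 8.32 and 8.99 CPM of Tfb2m and MITF/TFE3 DKO libraries 4.32, 5.04 and 5.53 CPM, with no overlap (0.55 ± 0.17, adjusted p = 0.011). The 100 neighbours of Tfb2m on chromosome 1 had a median difference of 0.46 in the same comparison, and the part of the neighbourhood in the level of Tfb2m was not tested in any comparison. Leaving out the DKO's replicate 1 (0.47, adjusted p = 0.052) or TKO replicate 3 (0.44, adjusted p = 0.063) ended the call. The difference of 0.41 ± 0.17 between the TKO and the TFEB/TFE3 DKO (adjusted p = 0.047) was lost without replicate 1 or 3 of that DKO or replicate 2 or 3 of the TKO (adjusted p from 0.11 to 0.19). In this comparison the neighbours' median was 0.59. Against parental cells the TKO had a change of 0.34, with a neighbours' median of 0.76, and passed without its replicate 1 (0.50, adjusted p = 0.027).

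Counted together, 5 of the 10 members changed in the MITF KO (2 up, 3 down), in a comparison that called 37.8% of all genes at an adjusted p under 0.05, and 7 changed in the MITF/TFE3 DKO (3 up, 4 down; 41.9% of all genes). There were 4 changed members, all down, in each of MITF/TFEB DKO and TKO, where 56.1% and 56.2% of all genes were called. A single member changed in each of the 3 other lines, TFE3 KO (12.3% of all genes), TFEB KO (4.84%) and TFEB/TFE3 DKO (8.81%). Against the MITF KO, 3 members changed in the MITF/TFE3 DKO (37.7% of all genes) and 1 in the MITF/TFEB DKO (49% of all genes). Against the TKO, 4 members differed in the MITF/TFE3 DKO (50.8% of all genes) and 4 in the TFEB/TFE3 DKO (57.9%). Between the TKO and the MITF/TFEB DKO the count by limma was 0, with 12.4% of all genes called, and it was also 0 at an unadjusted p under 0.05 and by edgeR. With 10 genes, none of these counts was set against the rest of the genes by a test.

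Pairs of members ranged from parallel to opposite patterns across the lines. Between line means (n = 8, which share the same libraries and scaling), the highest Pearson r was that of Pprc1 and Nrf1 (0.91), then Ppargc1b and Nrf1 (0.89), and the lowest that of Esrra and Gabpa (-0.76). Among 9539 genes with a mean of at least 5 CPM, those most like Ppargc1a were Stxbp4 (r = 0.98), Pigyl (0.98) and the chromatin remodelling ATPase Smarca2 (0.98), each lowest in the TKO. The genes most like Ppargc1b were the mitotic kinase Plk1, Steap1 and Cbx3 (r = 0.98, 0.97 and 0.97), and those most like Pprc1 were the La protein gene Ssb, the AAA ATPase gene Ruvbl1 and Tspan5 (0.99, 0.99 and 0.98). For Esrra they were Mlx, Dennd6a and Cebpz (r = 0.98, 0.98 and 0.96), and for Tfam 1190007I07Rik, the mitochondrial ribosomal gene Mrpl9 and Llph (0.97, 0.97 and 0.96). These values describe 8 points and were chosen as the highest of many.

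Of 26 measured regulators and partners of PGC-1, 7 fell and 1 rose in the MITF KO and 8 fell and 3 rose in the MITF/TFE3 DKO. Over all genes 17.8% fell and 20.1% rose in the former, and 21.7% fell and 20.2% rose in the latter. With MITF and TFEB lost (MITF/TFEB DKO) 9 fell and 6 rose, and for the TKO 8 fell and 5 rose, with 28.8% of all genes up and 27.3% down in the former and 28.3% up and 27.9% down in the latter. Their median changes lay between -0.13 and -0.04, and those of all genes between 0.00 and 0.02. Prkaa1, a catalytic subunit of AMP-activated kinase, which phosphorylates PGC-1α, had 76.3 ± 2.34 CPM (SD, n = 3) in parental cells, 22.3 ± 1.82 in the MITF KO and 18.7 ± 2.03 in the TKO (-1.73 and -1.98, adjusted p = 5.5e-13 and 2.4e-14). It fell likewise in both DKO lines without MITF, with changes of -1.68 (MITF/TFE3) and -1.90 (MITF/TFEB). Lpin1, a lipin that acts as a partner of PGC-1α, rose from 9.41 ± 1.18 CPM in parental cells to 26.6 ± 3.91 and 26.1 ± 4.29 in the MITF/TFE3 and MITF/TFEB DKO (1.40 and 1.37, adjusted p = 5.8e-08 and 2.5e-08). Perm1, a muscle regulator of PGC-1 and ERR targets, was low throughout, with 1.34 ± 0.60 CPM in parental cells, 0.25 ± 0.19 in the MITF KO and 5.74 ± 0.71 in the MITF/TFEB DKO. It fell in the first and rose in the second (-0.88 and 1.55, adjusted p = 0.00053 and 1.8e-07).

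Among 27 measured targets of PGC-1, ERRα, NRF1 and GABP, mainly genes of the respiratory chain and the citric acid cycle, 15 rose and 4 fell in the MITF KO (median 0.32), and 17 rose and 1 fell in the MITF/TFE3 DKO (median 0.36). Of all genes, 20.1% rose and 17.8% fell in the MITF KO, and 20.2% rose and 21.7% fell in the MITF/TFE3 DKO. The MITF/TFEB DKO had 5 up and 8 down (median -0.07), and in the TKO 6 rose and 8 fell (median -0.16). In those lines 28.8% and 28.3% of all genes rose, and 27.3% and 27.9% fell. Against the MITF KO, the MITF/TFEB DKO had 5 targets up and 14 down (median -0.33), where 25.1% of all genes rose and 23.9% fell. These comparisons share the parental or the MITF KO libraries.

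Vegfa, the angiogenic factor that PGC-1α and ERRα raise in muscle, had 23.9 ± 2.52 CPM in parental cells (SD, n = 3), 47.0 ± 6.55 in the MITF KO and 14.4 ± 0.32 in the MITF/TFEB DKO. It rose in the first (0.94, adjusted p = 6.7e-05) and fell in the second (-0.68, adjusted p = 0.00098). Idh3a, a subunit of isocitrate dehydrogenase, rose to 142 ± 4.42 CPM in the MITF KO from 90.2 ± 8.58 (0.65, adjusted p = 0.00014). Cox4i1, a subunit of cytochrome c oxidase, had 622 ± 63.9 CPM in parental cells, 992 ± 85.6 in the MITF/TFE3 DKO and 429 ± 23.4 in TKO cells (0.67 and -0.53, adjusted p = 1.9e-05 and 0.00014). Cox6a1, another subunit, was at 985 ± 51.1 CPM in the MITF KO and 553 ± 36.3 in the MITF/TFEB DKO (-0.83, adjusted p = 1.7e-08). Others moved the opposite way to these. Tspo, a protein of the outer membrane, rose in the MITF/TFEB DKO (0.76, adjusted p = 1.8e-07), and Gpx1, a glutathione peroxidase, fell in the MITF KO (-0.64, adjusted p = 1.2e-06).

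Of 16 genes of mitochondrial DNA replication, elongation and the nucleoid, 1 rose and 1 fell in the MITF KO and 1 rose and 6 fell in the TKO. Of all genes, 20.1% rose and 17.8% fell in the MITF KO, and 28.3% rose and 27.9% fell in the TKO. Lrpprc, which stabilises mitochondrial messengers, had 475 ± 61.7 CPM in parental cells (SD, n = 3), 671 ± 11.2 in the MITF KO and 245 ± 14.2 in the MITF/TFEB DKO. It rose in the first (0.51, adjusted p = 0.01) and fell in the second (-0.95, adjusted p = 1.1e-05). Its binding partner Slirp fell in both (-0.83 and -0.82, adjusted p = 0.00092 and 0.00056). Twnk, the helicase of mitochondrial DNA, fell in the TKO from 14.1 ± 0.41 to 7.62 ± 1.51 CPM (-0.83, adjusted p = 2.1e-05). None of 15 RNAs encoded by mitochondrial DNA that were looked up was among the measured genes, so these were not analysed.

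Of 14 genes of protein import and folding, 8 fell in the MITF KO (median -0.42), where 17.8% of all genes fell, and the other 6 did not pass, while 3 rose and 3 fell in the MITF/TFE3 DKO. The import receptor Tomm70a had 243 ± 17.1 CPM in parental cells (SD, n = 3) and 138 ± 22.2 in the MITF KO (-0.82, adjusted p = 3.1e-06). For the MITF/TFEB DKO 7 fell and 1 rose and for the TKO 6 fell and 1 rose, where 27.3% and 27.9% of all genes fell. Among those that fell in both was the chaperonin Hspd1 (-0.57 and -0.55, adjusted p = 4.6e-07 and 6.9e-07). Of 10 genes of fusion and fission, 4 rose and 2 fell in the MITF KO and 5 rose and 2 fell in each of the other 3 lines without MITF. Of all genes, 20.1% rose and 17.8% fell in the MITF KO, and in the other 3 lines between 20.2% and 28.8% rose and between 21.7% and 27.9% fell. The mitofusin Mfn1 rose from 40.8 ± 2.20 to 65.3 ± 1.1 CPM in the MITF KO (0.67, adjusted p = 4.2e-06).

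Of 8 genes of proteases and prohibitins, which guard the quality of inner membrane proteins, 3 fell in the MITF/TFEB DKO and 4 fell with all 3 factors lost, where 27.3% and 27.9% of all genes fell. Lonp1, the matrix protease that degrades damaged and unbound proteins, had 159 ± 4.06 CPM in parental cells (SD, n = 3). It rose in the MITF KO to 203 ± 21.1 CPM (0.34, adjusted p = 0.0089) and in the MITF/TFE3 DKO to 264 ± 3.06 CPM (0.72, adjusted p = 4.7e-06). The MITF/TFEB DKO had a fall to 111 ± 14.0 CPM (-0.53, adjusted p = 9.2e-05) and the TKO one to 97.5 ± 4.64 CPM (-0.71, adjusted p = 2.3e-06). The prohibitin Phb2 fell in all 4 lines without MITF, most in the MITF/TFEB DKO (-1.03, adjusted p = 1.9e-11).

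**Figure D5:**
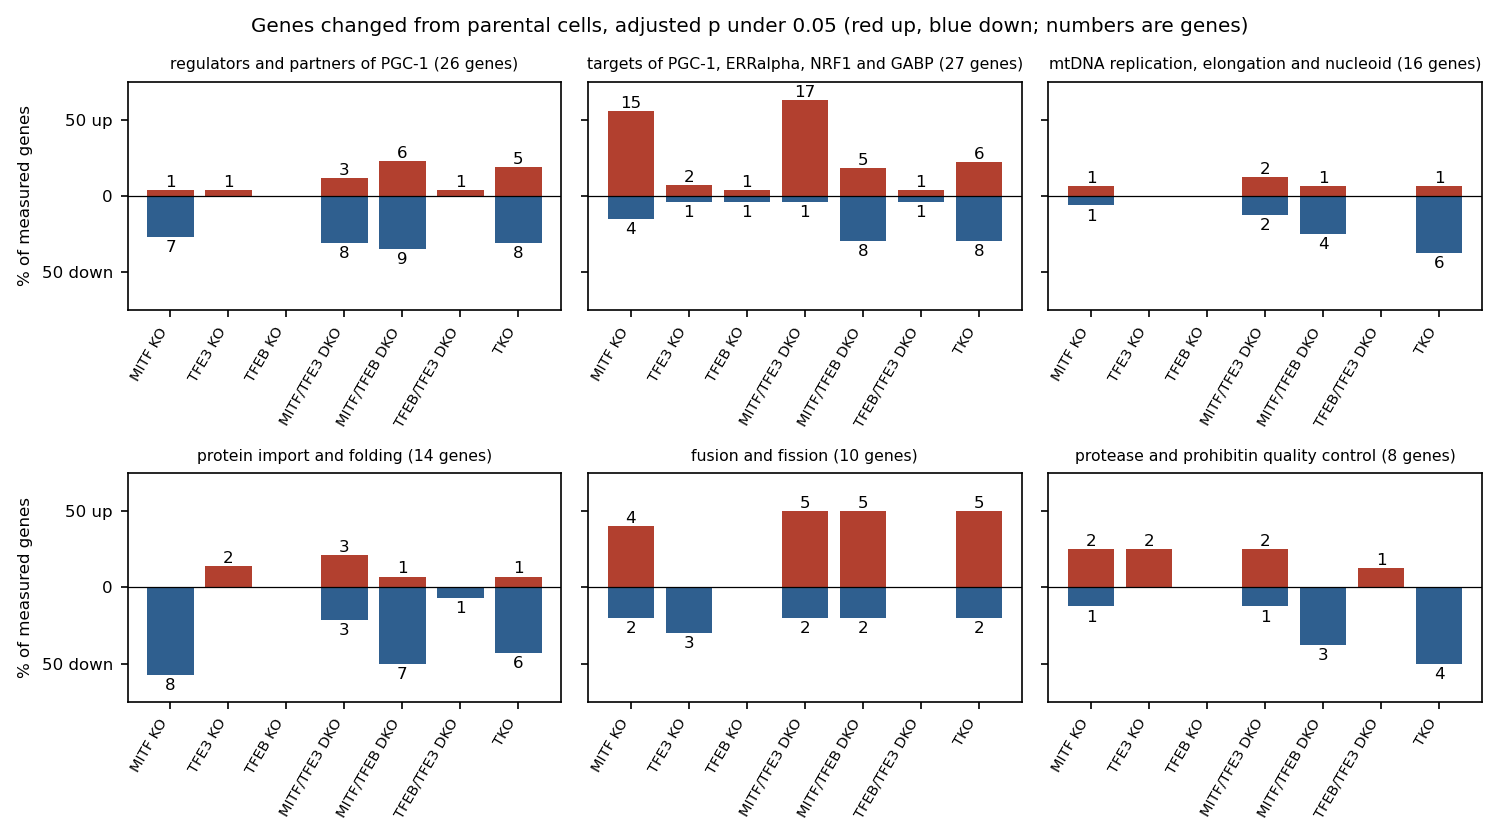
Share of the measured genes of 6 lists (vertical axes, percent) that rose (red, above 0) or fell (blue, below 0) from parental cells in each KO line at an adjusted p under 0.05, with the number of genes on each bar. Targets of PGC-1 and its partners had 15 and 17 genes up in the MITF KO and MITF/TFE3 DKO, and 8 down in each of MITF/TFEB DKO and TKO. Of all genes, 20.1% and 20.2% rose in the former lines, and 27.3% and 27.9% fell in the latter.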

How the data were processed

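The authors trimmed 3′ end libraries (QuantSeq, poly(A) RNA) with Trim Galore 0.6.5 and cutadapt 2.10 after FastQC 0.11.9, mapped them with STAR 2.7.8a to mm39, scaled the counts with edgeR and deposited a table of TMM-scaled CPM, a normalized signal that is never negative. The counting tool, annotation and gene filter are not given in the sources used here. The values were expected to be plain CPM, but their totals ran from 933263 to 1081081, so they were treated as a signal and the same test was kept. Of all values, 99.99% came out as whole reads within 0.05 of a read (99.98% in the lowest library). The number of columns of other samples was 0. Replicates of a line differed by more than sampling noise (chi-square per degree of freedom at least 4.58).

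Lines were compared with limma 3.58.1 (R 4.3.3) on log2(CPM + 1) values, in a single fit of the 24 libraries (16 residual degrees of freedom) with a trended variance and Benjamini-Hochberg adjustment over 12010 genes. A gene changed at an adjusted p under 0.05. The scripts were tested on simulated data. The alternatives were edgeR 4.0.16 (quasi-likelihood test) on the reads, pseudocounts of 0.25 and 5, a mean CPM of at least 5, quantile normalization, scaling by median-of-ratios size factors, a constant variance, fits restricted to the libraries of a comparison, a replicate block, each library left out, and the 2-fold rule. The 10 members and all lists were chosen with earlier results of these data known. Named are the members, the 3 genes most like 5 of them, and at most 4 genes of each list with the largest change in a comparison. Positions are from GENCODE on GRCm39 (11705 genes placed), and neighbours are the 50 genes on each side with a mean CPM of at least 5; Tfb1m had 51 neighbours. Sequence shared at 3′ ends was found with BLAST 2.17.0. Python 3.11.15, pandas 2.3.3, numpy 2.4.6 and matplotlib 3.10.9 were used.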

Additional observations from a re-analysis of the deposited data

Results flagged for a closer look

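In 5 cases the effect of 1 knockout on a member differed with the presence of another factor by a test of the difference itself (limma's interaction term, adjusted over 12010 genes). For MITF and TFEB, MITF and TFE3, and TFEB and TFE3, 1 of the 10 members passed each time. For TFEB and TFE3 without MITF, 2 passed. Of all genes, 35.1%, 20.2%, 12.4% and 28.6% passed in these interactions, in the same order. For Ppargc1a the loss of TFEB gave a log2 change of 0.44 from parental cells, a call that passed in only 1 of 6 fits with 1 library left out. From the MITF KO it gave -2.57, a difference of -3.01 ± 0.17 (SE, adjusted p = 2e-12). The effect of TFE3 on Ppargc1a differed between MITF KO and parental cells by -0.68 (adjusted p = 0.0069), and between TFEB KO and parental cells by 0.84 (adjusted p = 0.0024). In cells without MITF the effects of TFEB and TFE3 on Ppargc1a differed from additive by 0.56 (adjusted p = 0.02). For Gabpa the same difference in cells without MITF was 0.70 (adjusted p = 0.026).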

How the results depend on the processing

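Over all comparisons of a member under the settings other than a left-out library, 1412 values kept their direction and their side of the threshold, 12 calls were lost, 16 were gained and 0 reversed. With 1 library left out, 1123 were kept, 50 were lost, 27 were gained and 0 reversed. Counts of members under the 2-fold rule against parental cells were 1 for MITF KO (6.28% of all genes), MITF/TFEB DKO (13.7%) and TKO (14.7%). They were 0 for TFE3 KO (1.71% of all genes), TFEB KO (0.783%) and MITF/TFE3 DKO (5.87%). That rule gave 0 for the MITF/TFE3 DKO against the MITF KO (5.06% of all genes). It gave 1 for the TKO against the MITF/TFE3 DKO (11.4%) and against the TFEB/TFE3 DKO (15.9%). Without the variance trend, and with only the libraries compared, the TFEB KO had 0. With only the libraries compared, the MITF/TFEB DKO set against MITF KO had 2 and the interaction of MITF and TFEB 2. With quantile normalization these had 3 and 2. The cause was not tested.

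With 1 library left out, counts against parental cells ran from 3 to 5 (MITF KO), 0 to 2 (TFE3 KO), 0 to 1 (TFEB KO), 5 to 7 (MITF/TFE3 DKO), 3 to 5 (MITF/TFEB DKO), 1 to 1 (TFEB/TFE3 DKO) and 3 to 5 (TKO). Against the MITF KO they ran from 2 to 4 (MITF/TFE3 DKO) and 1 to 2 (MITF/TFEB DKO), and for the TKO from 2 to 6, 0 to 0 and 3 to 4 against the MITF/TFE3, MITF/TFEB and TFEB/TFE3 DKOs. For the interactions they ran from 1 to 3 (MITF and TFEB), 1 to 2 (MITF and TFE3), 1 to 3 (TFEB and TFE3) and 0 to 3 (TFEB and TFE3 without MITF).

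The labels do not say whether libraries with the same replicate number were handled together. Deviations of libraries with the same number had a mean r of 0.02 (lowest -0.66, 42 of 84 pairs above 0.1). The replicate block ended the calls of Tfam in the MITF KO and of Tfb2m in the TKO against the TFEB/TFE3 DKO, both with adjusted p = 0.05 after rounding, and gained Ppargc1b in the MITF/TFEB DKO (adjusted p = 0.039), Pprc1 in the MITF/TFE3 DKO against the MITF KO (0.022) and Pprc1 in the TKO against the MITF/TFE3 DKO (0.046).

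Depth limits Tfb1m and Tfb2m most, with 76 to 227 reads a library, against 976 to 8541 for Ppargc1a.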
